A study of Mus musculus with 12 samples.

Results

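Transcripts of 10 transcription factors that set B cell and germinal centre identity were followed through sorted mouse B cells: Bcl6, Bach2, Pax5, Spib, Irf8, Ebf1, Mef2b, Mef2c, Pou2af1 and Foxo1. They were chosen by name, as the entries of the deposited gene count table whose Entrez IDs carry these symbols. All 10 were found among its 27179 IDs, and all 10 passed the filter on low counts, as did 13131 IDs in all. The study asked what B cells lose when they lack Myb (c-Myb), a transcription factor, or Moz (gene symbol Kat6a), a histone acetyltransferase. C57BL/6 mice were immunised with NP-KLH in alum. Germinal centre (GC) B cells were sorted on day 12 in the Myb experiment and on day 7 in the Moz experiment, and secondary plasmablasts were sorted in the Myb experiment on day 5 after a boost. The 12 libraries came from pools of 2 to 8 mice, 2 pools in each of 6 groups, and measured polyA RNA.

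Myb knockout GC B cells and Myb knockout plasmablasts carried Myb fl/fl with CD23-cre T/+, a cre driven from the gene of the mature B cell receptor CD23. Their controls were Myb fl/fl with no cre, so cre and loss of Myb cannot be told apart. Moz knockout GC B cells carried Moz fl/fl with AID-cre T/+, a cre that acts in activated B cells, and their controls carried AID-cre T/+ with normal Moz alleles. The sources used here give neither ages nor the floxed exons. In such sorted pools, fewer cells of a type and less RNA per cell cannot be told apart.

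A B cell in a germinal centre keeps its identity through a network of factors that switch B cell genes on and the plasma cell programme off. Pax5 and Ebf1 maintain B cell genes. Bcl6 and Bach2 repress Prdm1, the gene of the plasma cell regulator Blimp-1, and Blimp-1 in turn represses Bcl6, Pax5 and Spib. Spib and Irf8 bind composite DNA sites together. Mef2b and Mef2c act upstream of Bcl6 and in B cell proliferation, Pou2af1 (OCA-B, Bob1) is the coactivator of the octamer-binding factors, and Foxo1 helps organise the dark zone.

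The members differed in how much of their GC level was left in plasmablasts. Spib, Pax5, Bcl6 and Bach2 were at 0.471% to 1.83% of their GC level. Mef2b, Irf8 and Ebf1 were at 8.44% to 16.3%, and Foxo1 was at 57.9% to 60.8%. Mef2c and Pou2af1 stayed high, at 71.4% to 92.8%, and did not pass the test. Between knockout and control cells of one type, no member passed the test, for Myb or for Moz.

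The 250 bases upstream of an annotated start are shown for 6 members: the pair most reduced in plasmablasts (Spib and Pax5), the reduced repressors (Bcl6 and Bach2), Mef2b, which holds an octamer, and Pou2af1, whose product acts at octamers and which stayed high. They were taken from RefSeq on GRCm38.p6 (mm10), 5′ to 3′ on the strand of the gene, and capitals mark the motif matches described after them.
Spib, chr7:44532072-44532321, minus strand: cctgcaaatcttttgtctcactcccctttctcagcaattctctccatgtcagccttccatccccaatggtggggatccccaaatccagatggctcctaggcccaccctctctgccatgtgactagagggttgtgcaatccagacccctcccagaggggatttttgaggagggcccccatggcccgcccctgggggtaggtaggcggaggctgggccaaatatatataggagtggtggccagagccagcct
Pax5, chr4:44710695-44710944, minus strand: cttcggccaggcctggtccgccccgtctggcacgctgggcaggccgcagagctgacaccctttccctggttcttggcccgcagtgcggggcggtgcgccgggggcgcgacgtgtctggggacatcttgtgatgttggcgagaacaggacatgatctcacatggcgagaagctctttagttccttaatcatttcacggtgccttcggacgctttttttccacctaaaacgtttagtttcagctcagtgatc
Bcl6, chr16:23981284-23981533, minus strand: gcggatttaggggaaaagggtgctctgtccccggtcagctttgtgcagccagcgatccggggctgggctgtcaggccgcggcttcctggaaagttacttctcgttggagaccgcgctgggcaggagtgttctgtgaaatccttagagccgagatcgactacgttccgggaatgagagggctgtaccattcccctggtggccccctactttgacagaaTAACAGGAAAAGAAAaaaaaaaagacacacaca
Bach2, chr4:32417185-32417434, plus strand: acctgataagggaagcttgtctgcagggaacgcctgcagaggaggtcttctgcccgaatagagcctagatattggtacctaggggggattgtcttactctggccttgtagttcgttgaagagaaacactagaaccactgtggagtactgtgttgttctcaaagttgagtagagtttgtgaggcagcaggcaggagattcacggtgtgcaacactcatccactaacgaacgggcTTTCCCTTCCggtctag
Mef2b, chr8:70152511-70152760, plus strand: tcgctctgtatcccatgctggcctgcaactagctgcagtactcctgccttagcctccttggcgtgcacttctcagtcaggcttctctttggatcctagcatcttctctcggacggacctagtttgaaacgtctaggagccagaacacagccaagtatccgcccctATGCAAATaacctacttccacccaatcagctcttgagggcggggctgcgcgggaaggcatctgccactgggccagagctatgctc
Pou2af1, chr9:51213440-51213689, plus strand: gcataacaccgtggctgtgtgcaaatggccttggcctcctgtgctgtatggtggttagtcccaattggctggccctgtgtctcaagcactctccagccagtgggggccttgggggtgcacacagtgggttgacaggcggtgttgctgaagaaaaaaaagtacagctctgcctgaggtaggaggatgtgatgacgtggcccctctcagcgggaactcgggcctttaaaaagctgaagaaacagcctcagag
None of these 6 windows overlaps an exon in GENCODE. The Bcl6 and Bach2 windows lie in introns, before an internal RefSeq start. The Mef2b window lies before the RefSeq start of that gene, in an intron of the longer GENCODE gene. The other 3 lie outside any GENCODE gene, though the downstream end of the Spib window overlaps the RefSeq span of Spib (44525995 to 44532087).

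All 10 members had at least 1 such window, 15 in all, and 8 motifs were searched on both strands. The octamer ATGCAAAT was found in the Mef2b window only among the 15, from 85 to 78 bases before the start, and in 1.6% of all 32851 windows. The PU.1-IRF composite site (GGAA and GAAA with any 2 bases between), bound by Spib or PU.1 together with Irf8 or Irf4, was found in the Bach2 window and in the Bcl6 window shown, against 2.3% of all windows. In Bcl6 it began 28 bases before the start and shared 1 base with a MYB core TAACNG, a motif that 19.8% of all windows held and that also occurred near Foxo1 and Mef2c. An interferon response element (GAAA 2 times with any 2 bases between, in 2.98% of all windows) was found near Ebf1, and an EBF site (TCCC and GGGA with any 2 bases between, 0.779%) near Foxo1. The Blimp-1 core AGTGAAAG or AGCGAAAG (1.5%), the BCL6 core TTCCTAGAA or TTCCTCGAA (0.399%) and the FOXO motif GTAAACA (3.17%) were in none of the 15 windows. Such matches describe letters in a window and show no binding.

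Libraries held 8285934 to 24801297 counts. Immunoglobulin genes took 65.0% to 70.0% of the counts in plasmablasts and 1.59% to 9.16% in GC B cells, and levels are therefore given as CPM after TMM scaling. Differences were tested with edgeR's quasi-likelihood test over all tested genes, and a gene was called at a Benjamini-Hochberg adjusted p of 0.05 or less. Markers matched the labelled cell types: all 7 GC markers were lower and all 7 plasmablast markers higher in control plasmablasts than in control GC B cells. Of the other lineages, T cell markers summed to 5.02 to 9.28 CPM in plasmablasts and 53.5 to 108.1 CPM in GC B cells, where Lck alone gave 50.2 to 103.8 CPM and each of the other 6 at most 2.44 CPM. Summed myeloid markers were at 20.9 to 65.5 CPM in plasmablasts and 6.73 to 35.9 CPM in GC B cells. Mpo was at 0 in 4 of 6 groups. Of the 5 tested, however, 3 (Csf1r, Adgre1 and Fcgr3) were called higher in control plasmablasts than in control GC B cells, beside 25.0% of all genes. Csf1r had 38.3 and 9.3 CPM in control plasmablasts, against 5.39 and 1.93 CPM in control GC B cells. The source of this myeloid signal was not tested. Markers of NK and plasmacytoid dendritic cells summed to 705.7 to 1129.9 CPM in plasmablasts and 226.6 to 386.0 CPM in GC B cells, nearly all of it from Ly6d, Tcf4 and Bst2, while Ncr1, Nkg7, Klrb1c, Prf1 and Siglech each stood at 4.4 CPM or less in every library. Markers of naive follicular B cells summed to 34.8 to 201.1 CPM in plasmablasts and 140.4 to 430.5 CPM in GC B cells. Whole-gene counts of the deleted genes differed little between knockout and control (Myb log2 -0.05, SE 0.24, in GC B cells and -0.49, SE 0.29, in plasmablasts; Kat6a 0.04, SE 0.38), which checks nothing without the floxed exons. Pool 1 of the Myb knockout GC B cells is labelled as 2 females, yet the Y-linked Ddx3y and Eif2s3y stood at 67.2 and 54.1 unscaled CPM in it, so values without this pool are given beside the comparisons that use it. Pool 1 of the Myb knockout plasmablasts is labelled as 3 males with 2 females. Its Xist, expressed in females, stood at 0.526 unscaled CPM, against 5.53 to 11.9 in the other plasmablast pools. Whether that label is right was not tested.

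**Figure D1:**
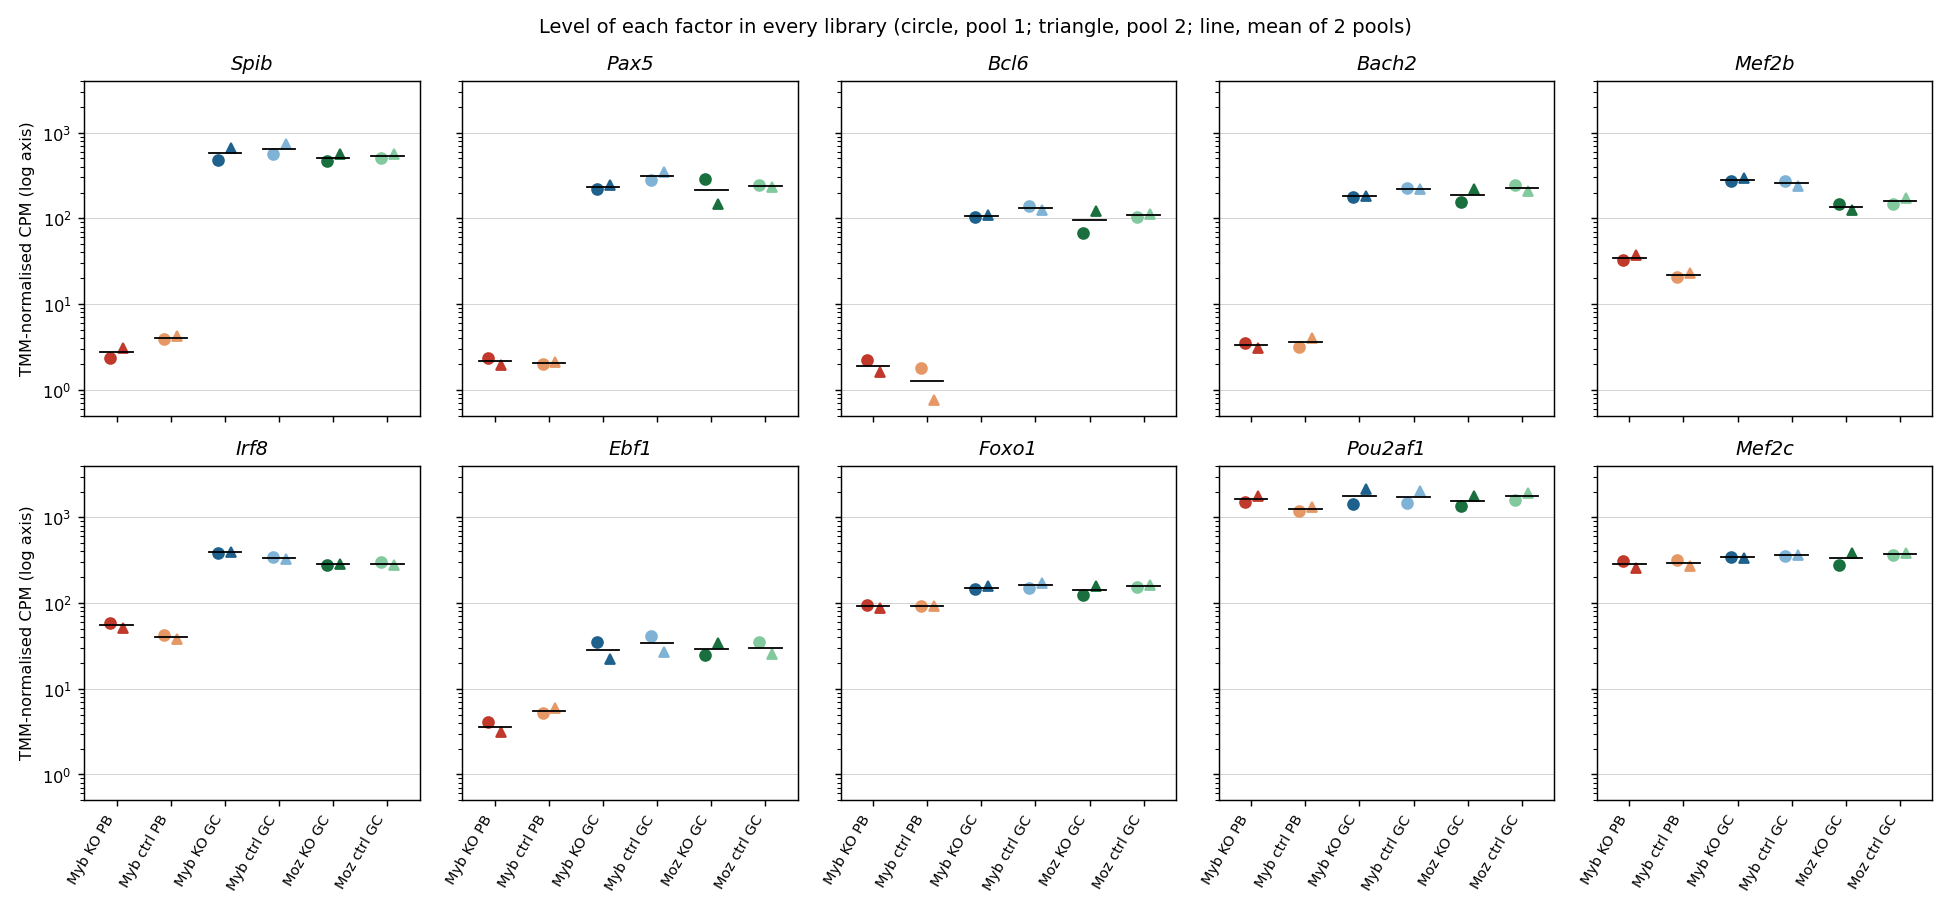
TMM-normalised CPM of each factor on a log axis in every library, by group; circles are pool 1, triangles pool 2 and lines the mean of the 2 pools. Spib, Pax5, Bcl6 and Bach2 sit at 0.753 to 4.27 CPM in the plasmablast pools, while Mef2c and Pou2af1 lie close to their GC levels.

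Pax5 holds B cells to their lineage, and Spib is an Ets factor of B cells that works at sites shared with Irf8. Spib had 2.34 and 3.10 CPM in Myb knockout plasmablasts and 482.1 and 668.2 CPM in Myb knockout GC B cells. In control cells it had 3.86 and 4.27 CPM in plasmablasts, against 562.2 and 730.6 CPM in GC B cells. The plasmablast and GC pools did not approach each other, and the difference was -7.72 (standard error, SE, 0.34) on the log2 scale in knockout and -7.31 (SE 0.33) in control cells, with edgeR adjusted p of 1.49e-07 and 8e-08. Spib fell furthest of the 10, and its log2 estimate ranked 38 from the lowest in knockout cells and 48 in control cells among the 13131 tested genes.

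Pax5 had 2.34 and 1.95 CPM in Myb knockout plasmablasts and 217.1 and 245.2 CPM in Myb knockout GC B cells. Control cells had 1.98 and 2.13 CPM in plasmablasts, against 276.5 and 343.8 CPM in GC B cells. The knockout and control plasmablast pools overlapped each other and lay far below every GC pool. The log2 difference was -6.75 (SE 0.38) in knockout and -7.24 (SE 0.39) in control cells, and the edgeR adjusted p were 2.36e-07 and 1.17e-07. These levels correspond to raw counts of 17 to 22 in a plasmablast library, so the low end is limited by counting.

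Ebf1, which with Pax5 maintains B cell genes, was lowest of the members per length in all 4 GC groups and changed less. It had 4.15 and 3.10 CPM in Myb knockout plasmablasts and 35.0 and 22.4 CPM in Myb knockout GC B cells. Its control values were 5.21 and 5.90 CPM in plasmablasts, against 41.2 and 26.9 CPM in GC B cells. Each plasmablast pool was below each GC pool, and pool 1 was the higher GC pool in both genotypes. On the log2 scale the difference was -2.99 (SE 0.34) in knockout and -2.62 (SE 0.32) in control cells, with edgeR adjusted p of 2.18e-05 and 3.69e-05.

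Bcl6, the repressor that GC B cells depend on, had 2.21 and 1.61 CPM in Myb knockout plasmablasts and 104.7 and 108.1 CPM in Myb knockout GC B cells. Control plasmablasts had 1.80 and 0.753 CPM, against 139.0 and 126.6 CPM in control GC B cells. Plasmablast libraries held only 17 and 14 Bcl6 counts in knockout and 20 and 6 in control cells. This was a log2 difference of -5.81 (SE 0.39) in knockout and -6.63 (SE 0.40) in control cells, with edgeR adjusted p of 5.27e-07 and 2.33e-07. Without pool 1 of the control plasmablasts, the pool with 20 counts, the control estimate was -7.45.

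Bach2, a repressor that delays the plasma cell fate, had 3.50 and 3.10 CPM in Myb knockout plasmablasts and 177.4 and 182.1 CPM in Myb knockout GC B cells. Among control cells it had 3.14 and 4.02 CPM in plasmablasts, against 223.4 and 221.9 CPM in GC B cells. Knockout and control plasmablasts overlapped, and every GC pool lay far above them. The log2 difference was -5.77 (SE 0.28) in knockout and -5.97 (SE 0.27) in control cells, with edgeR adjusted p of 1.61e-07 and 8e-08. The antisense gene Bach2os overlaps Bach2, and the strand setting of the counting is unknown here, so reads of the 2 genes may be mixed.

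Irf8, an interferon regulatory factor that pairs with Spib or PU.1, had 58.9 and 50.8 CPM in Myb knockout plasmablasts and 389.1 and 392.4 CPM in Myb knockout GC B cells. The control values were 42.9 and 37.8 CPM in plasmablasts, against 349.0 and 323.9 CPM in GC B cells. It remained readily counted in plasmablasts, at 301 to 478 counts a library. Plasmablasts differed by a log2 value of -2.83 (SE 0.20) in knockout and -3.06 (SE 0.20) in control cells, with edgeR adjusted p of 7.13e-07 and 3.38e-07.

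Mef2b, a MADS-box activator that acts upstream of Bcl6, had 32.2 and 37.4 CPM in Myb knockout plasmablasts and 269.1 and 293.8 CPM in Myb knockout GC B cells. Control pools had 20.4 and 22.8 CPM in plasmablasts, against 273.2 and 239.0 CPM in GC B cells. All plasmablast pools were below all GC pools, and the control plasmablasts were the lowest. In GENCODE, though not in RefSeq, Borcs8 overlaps Mef2b on the same strand, and whether reads of the 2 genes were mixed was not tested. The log2 difference was -3.01 (SE 0.21) in knockout and -3.57 (SE 0.21) in control cells, with edgeR adjusted p of 6.22e-07 and 2.25e-07.

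Mef2c, its relative in B cell proliferation and survival, had 307.8 and 256.9 CPM in Myb knockout plasmablasts and 343.8 and 337.7 CPM in Myb knockout GC B cells. In control cells it had 320.5 and 273.4 CPM in plasmablasts, against 351.7 and 368.8 CPM in GC B cells. The groups did not overlap but lay close. Log2 differences were -0.27 (95% interval -0.76 to 0.22, edgeR adjusted p = 0.329) in knockout and -0.28 (-0.77 to 0.21, adjusted p = 0.313) in control cells. Both intervals exclude the size of the Mef2b difference, and per kilobase Mef2c was the second highest member in plasmablasts, at 43.0 ± 5.48 CPM in knockout and 45.2 ± 5.08 CPM in control cells (SD, n = 2 pools).

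Pou2af1, the octamer coactivator, had 1532.7 and 1772.2 CPM in Myb knockout plasmablasts and 1436.0 and 2117.3 CPM in Myb knockout GC B cells. In control cells it had 1189.1 and 1306.6 CPM in plasmablasts, against 1469.7 and 2027.0 CPM in GC B cells. The knockout groups overlapped and the control groups did not. The log2 difference was -0.10 (95% interval -0.74 to 0.53, edgeR adjusted p = 0.78) in knockout and -0.49 (-1.12 to 0.15, adjusted p = 0.18) in control cells. Pou2af1 was the highest member per kilobase in every group, at 486.3 to 694.0 CPM per kilobase.

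Foxo1, a forkhead factor restrained by PI3K signalling, had 94.7 and 88.5 CPM in Myb knockout plasmablasts and 144.2 and 156.6 CPM in Myb knockout GC B cells. In control cells it had 92.8 and 93.0 CPM in plasmablasts, against 148.2 and 173.0 CPM in GC B cells. The groups did not overlap, and the decrease was the smallest of the 8 that passed the test. Its log2 difference was -0.72 (SE 0.19, edgeR adjusted p = 0.00754) in knockout and -0.79 (SE 0.19, adjusted p = 0.00402) in control cells. With only the 2 knockout groups in the fit, the knockout value was -0.64 with adjusted p = 0.062.

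**Figure D2:**
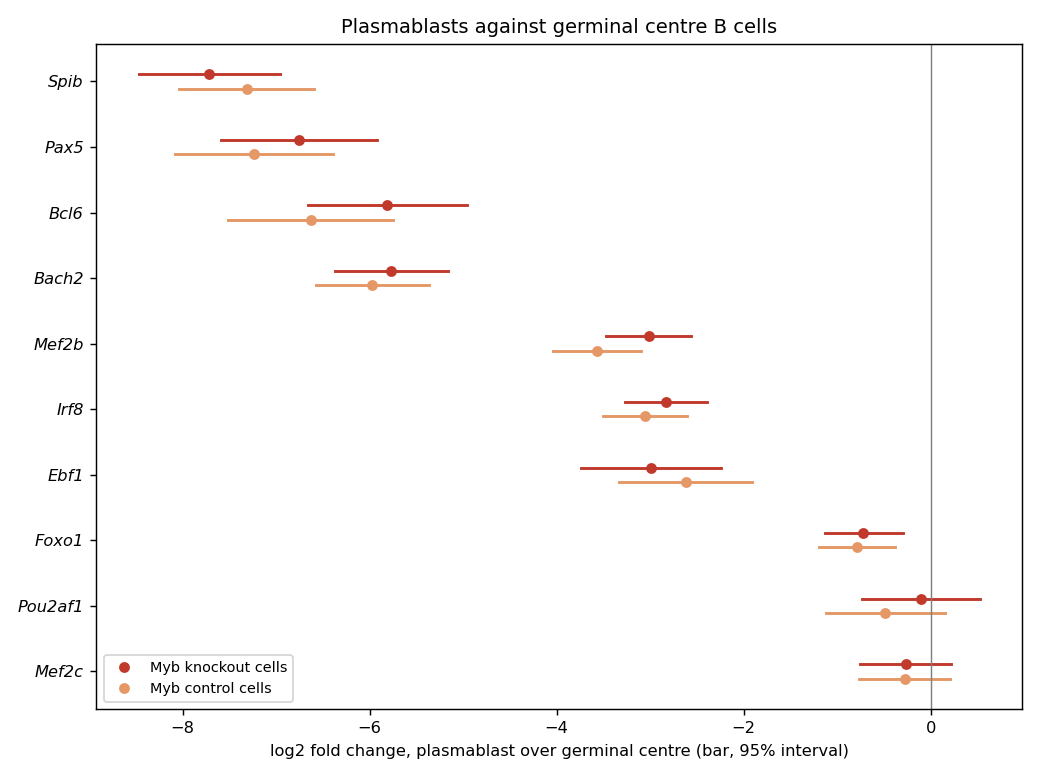
Log2 fold change of plasmablasts over GC B cells with its 95% interval for each factor, in Myb knockout and control cells. Intervals of Mef2c and Pou2af1 include 0, those of the other 8 lie below it, and Spib and Pax5 lie at -6.75 to -7.72.

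Counted together, 8 of 10 members were lower and 0 higher in plasmablasts by edgeR in each genotype. The share of all tested genes called lower was 27.2% in knockout and 28.1% in control cells, and the share called higher was 24.4% in knockout and 25.0% in control cells. Pools did not overlap, with plasmablasts lower, for 9 members in knockout cells, where 41.0% of all genes did so, and for 10 in control cells, where 41.3% did. The median log2 difference over the members was -3.0 in knockout and -3.32 in control cells, beside -0.17 over all tested genes in each. With 2 pools against 2, no exact permutation test could pass, since its smallest two-sided p is 0.333. Plasmablasts were collected after a boost and GC B cells after the first immunisation, on different dates. Cell type, boost, time after immunisation and date cannot be told apart. Labelled males numbered 1 to 3 in a plasmablast pool and 0 or 1 in a Myb GC pool, and the part of sex was not tested. With any 1 library of the 2 compared groups left out, the estimates of the 8 called members stayed below 0 in each genotype. The libraries left out included the knockout GC pool whose label disagrees with its Y-linked counts. Without that pool the knockout estimates moved by 0.01 to 0.36, the most for Ebf1 (-2.63), Pou2af1 (-0.36) and Spib (-7.93). Scaling to total counts alone called Mef2c (log2 -2.32 in knockout, -2.15 in control) and Pou2af1 (-2.15 in knockout, -2.36 in control) lower too, but that scaling put the median of all genes at -2.21 in knockout and -2.04 in control cells, close to both genes' own values.

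The low plasmablast levels were of the order of those of 3 GC markers in the same libraries. Relative to GC B cells, Rgs13 stood at 0.901% in knockout and 0.39% in control plasmablasts, Gcsam at 0.549% in knockout and 0.817% in control, and Mybl1 at 1.11% in knockout and 0.944% in control. Spib at 0.471% in knockout and 0.629% in control and Pax5 at 0.925% in knockout and 0.663% in control lay between 0.39% and 1.11%, the lowest and highest of these values, and Bcl6 at 1.79% in knockout and 0.96% in control lay above that span in knockout only. Bach2 was above it in both, at 1.83% in knockout and 1.61% in control. S1pr2, another GC marker, kept more, with 5.41% in knockout and 5.87% in control. How much of this signal came from GC B cells in the plasmablast sort was not tested. Mef2b (12.3% in knockout and 8.44% in control), Irf8 (14.0% in knockout and 12.0% in control) and Ebf1 (12.6% in knockout and 16.3% in control) were above all of these and below Fas (20.8% in knockout and 25.8% in control) and the proliferation gene Mki67 (30.2% in knockout and 30.1% in control).

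**Figure D3:**
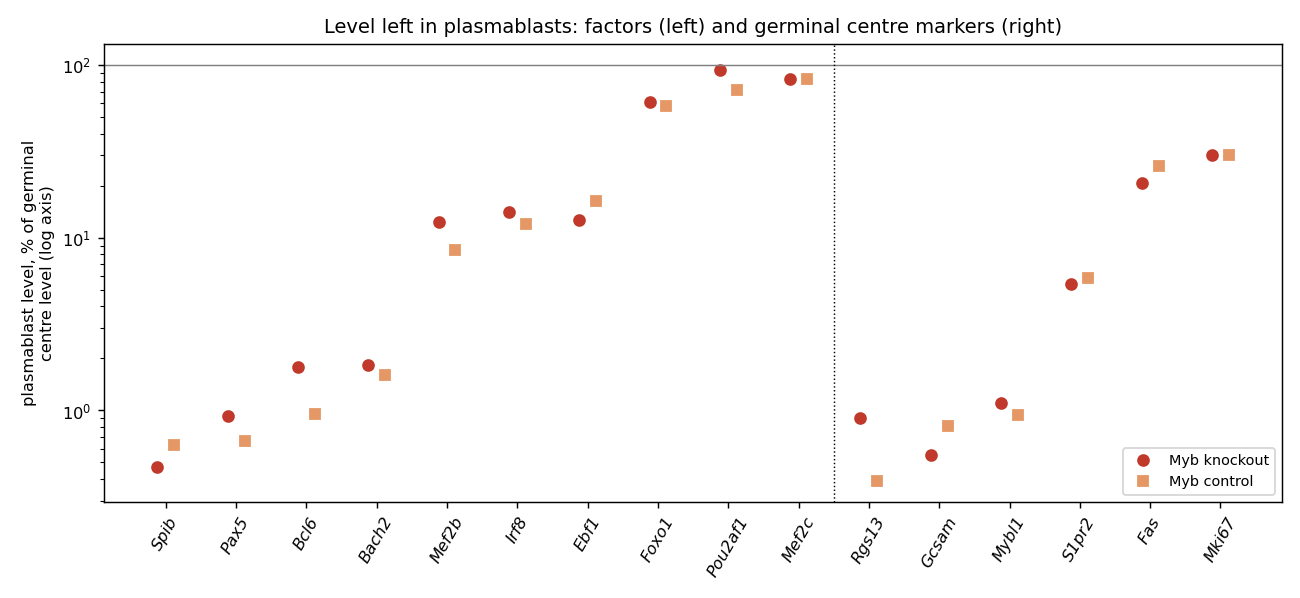
Plasmablast level of each factor and of 6 GC markers as a percent of the GC B cell level of the same genotype, on a log axis. Spib, Pax5, Bcl6 and Bach2 lie near Rgs13, Gcsam and Mybl1, and Mef2c and Pou2af1 lie at 71.4% to 92.8%.

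The order of the members changed with cell type when levels were set per kilobase of counted transcript. In control GC B cells on day 12, Pou2af1 (681.3 ± 153.6 CPM per kilobase) was followed by Pax5 (256.7 ± 39.4), Spib (232.0 ± 42.8) and Mef2b (190.8 ± 18.0), and neighbours among these last 3 overlapped. Ebf1 was last at 15.2 ± 4.49. In control plasmablasts Mef2c was the second and Foxo1 the third, ahead of Mef2b (16.1 ± 1.29) and Irf8 (14.3 ± 1.29), with Foxo1 and Mef2b overlapping. Bach2 (0.421 ± 0.0727) and Bcl6 (0.388 ± 0.225) were last and overlapped. Errors are SD of 2 pools. The counted length of Pax5 is only 1208 bases, short beside the 1342 to 8493 bases of the others, which raises its place in this order.

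Relatives of the members moved in both directions. Of 19 family relatives, 16 were tested (Ebf2, Ebf3 and Ebf4 had too few counts), and in control plasmablasts 7 were higher and 3 lower than in control GC B cells, where 25.0% and 28.1% of all genes were. Irf4, the interferon regulatory factor that drives plasma cell differentiation, averaged 615.1 ± 108.8 CPM in control plasmablasts and 35.9 ± 2.13 CPM in control GC B cells (log2 4.10, SE 0.29, edgeR adjusted p = 5.12e-07), opposite to Irf8. Spi1 (PU.1), the Ets relative of Spib, averaged 38.0 ± 3.28 CPM in plasmablasts and 118.5 ± 4.78 CPM in GC B cells (log2 -1.64, SE 0.21, adjusted p = 3.99e-05), beside -7.31 for Spib. Bach1 rose (33.6 ± 7.96 CPM in plasmablasts and 6.23 ± 0.481 CPM in GC B cells, log2 2.43, SE 0.34, adjusted p = 8.68e-05) where Bach2 fell, though with total counts alone it was at 0.56 and did not pass. Foxo3 was higher (21.4 ± 8.82 CPM in plasmablasts and 2.46 ± 0.968 CPM in GC B cells, log2 3.12, SE 0.58, adjusted p = 0.000768, but at 1.25 and not past the test with total counts alone). Foxo6, 1 of the 3 lower, had no count in either control plasmablast pool and only 0.766 ± 0.399 CPM in control GC B cells, so it was near the floor in both. Mef2a and Mef2d did not pass (log2 0.77, SE 0.41, and 0.60, SE 0.30). The median over the 16 was 0.78, beside -0.17 for all genes. In knockout cells 6 were higher and 3 lower.

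Of 15 partners and corepressors, 2 were higher and 5 lower in control plasmablasts, where 25.0% and 28.1% of all genes were, with a median log2 difference of -0.13. Ezh2, the polycomb methyltransferase that works with Bcl6 in GC B cells, averaged 15.4 ± 0.272 CPM in plasmablasts and 144.0 ± 18.9 CPM in GC B cells (log2 -3.23, SE 0.21, edgeR adjusted p = 3.38e-07). Of the octamer-binding factors that recruit Pou2af1, Pou2f1 (Oct1) did not pass (log2 -0.11, SE 0.31), and Pou2f2 (Oct2) was lower (-1.0, SE 0.32, adjusted p = 0.019). The Pou2f2 call was lost without pool 1 of the control GC B cells (log2 -0.68) or pool 2 of the control plasmablasts (-0.75). In knockout cells 2 of the 15 were higher and 4 lower.

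Most plasma cell factors ran opposite to Bcl6, Bach2 and Pax5. Of 5, 4 were higher and 0 lower in control plasmablasts, beside 25.0% and 28.1% of all genes, with a median of 5.29. Bhlha15 (Mist1), a factor of secretory cells, averaged 328.9 ± 1.09 CPM in plasmablasts and 1.65 ± 0.0611 CPM in GC B cells (log2 7.63, SE 0.29, edgeR adjusted p = 8e-08). Prdm1 averaged 204.8 ± 45.3 CPM in plasmablasts and 3.62 ± 0.578 CPM in GC B cells (log2 5.82, SE 0.38, adjusted p = 3.28e-07), and Xbp1, which builds the secretory apparatus, averaged 5443.8 ± 307.7 CPM in plasmablasts and 139.3 ± 40.4 CPM in GC B cells (log2 5.29, SE 0.35, adjusted p = 3.45e-07). Irf4 is the fourth, and Zbtb20 did not pass (log2 0.36, SE 0.48). In knockout cells the same number, 4 of 5, was higher.

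Of 13 genes known to be activated by Pax5 and Ebf1, 10 were lower and 0 higher in control plasmablasts, beside 28.1% and 25.0% of all genes, with a median of -2.16. Ciita, the master regulator of MHC class II genes, averaged 1.69 ± 0.789 CPM in plasmablasts and 217.9 ± 83.1 CPM in GC B cells (log2 -6.96, SE 0.49, edgeR adjusted p = 4.99e-07), reaching -7.58 without pool 1 of the control plasmablasts. Fcer2a (CD23) averaged 3.32 ± 1.52 CPM in plasmablasts and 212.8 ± 3.81 CPM in GC B cells (log2 -6.03, SE 0.35, adjusted p = 1.68e-07), and the complement receptor Cr2 averaged 8.04 ± 1.08 CPM in plasmablasts and 104.3 ± 12.7 CPM in GC B cells (log2 -3.69, SE 0.26, adjusted p = 4.62e-07). In knockout cells 9 of 13 were lower and 0 higher.

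Genes known to be repressed by Bcl6 split. Of 17, 8 were higher and 4 lower in control plasmablasts, beside 25.0% and 28.1% of all genes, with a median of 0.53, and the counts were the same in knockout cells (7 and 3 without the knockout GC pool with the doubtful label). Beside Prdm1, the cyclin Ccnd2 was higher (292.0 ± 10.4 CPM in plasmablasts and 25.3 ± 0.495 CPM in GC B cells, log2 3.53, SE 0.27, edgeR adjusted p = 8.19e-07). The checkpoint kinase Chek1 was lower (3.89 ± 0.173 CPM in plasmablasts and 39.6 ± 5.91 CPM in GC B cells, log2 -3.35, SE 0.26, adjusted p = 1.03e-06), and so was Trp53 (30.6 ± 1.62 CPM in plasmablasts and 102.5 ± 13.3 CPM in GC B cells, log2 -1.74, SE 0.20, adjusted p = 2.12e-05). The level of Mki67, the proliferation marker, moved with these, and its part in them was not tested.

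Of 15 known Foxo1 targets, 13 were tested, and 4 were higher and 4 lower in control plasmablasts, beside 25.0% and 28.1% of all genes, with a median of -0.04. Sesn3, a sestrin, averaged 3.75 ± 1.05 CPM in plasmablasts and 37.0 ± 2.58 CPM in GC B cells (log2 -3.28, SE 0.34, edgeR adjusted p = 1e-05). Irs2, an adaptor of insulin signalling, was higher (54.7 ± 29.6 CPM in plasmablasts and 3.87 ± 1.94 CPM in GC B cells, log2 3.81, SE 0.61, adjusted p = 0.000263), reaching 4.45 without pool 1 of the control GC B cells and 3.11 without pool 1 of the control plasmablasts. In knockout cells 3 were higher and 4 lower, and without the doubtful knockout GC pool 2 and 4. The knockout counts of the other 4 lists were the same without that pool.

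Loss of Myb left all 10 members without a call in GC B cells, where 0.236% of all tested genes were called higher and 0.0228% lower by edgeR and 755 had an unadjusted p under 0.05. No member was among those 755, and DESeq2 made no call of a member either. Among the repressors, Bcl6 had 104.7 and 108.1 CPM in knockout GC B cells, against 139.0 and 126.6 CPM in control GC B cells. Bach2 had 177.4 and 182.1 CPM in knockout against 223.4 and 221.9 CPM in control, and Pax5 had 217.1 and 245.2 in knockout against 276.5 and 343.8 CPM in control. In each of the 3 both knockout pools lay below both control pools.

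The log2 difference was -0.31 for Bach2 (95% interval -0.77 to 0.15), -0.32 for Bcl6 (-0.95 to 0.31) and -0.42 for Pax5 (-1.03 to 0.18), each with an edgeR adjusted p of 1.0. The intervals reach down to a knockout level of 0.586 of control for Bach2 and 0.519 for Bcl6. With same-date pools paired as a replicate block, the Pax5 difference had an unadjusted p of 0.0343 and an adjusted p of 0.36. Mef2c was the other member whose knockout pools lay lower (343.8 and 337.7 in knockout against 351.7 and 368.8 CPM in control), and Irf8 was the 1 member whose pools lay higher (389.1 and 392.4 in knockout against 349.0 and 323.9 CPM in control, log2 0.22, interval -0.19 to 0.62). Such separation was seen lower for 11.8% and higher for 13.8% of all tested genes. Within date pairs 7 members were lower in both pairs, as were 32.0% of all genes, and Irf8 was higher in both, as were 31.2%. Without the knockout pool whose label disagrees with its Y-linked counts, the 10 estimates ran from -0.61 (Ebf1) to 0.28 (Pou2af1), and Spib was at 0.05 instead of -0.17.

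The plasma cell factors were the only list of regulators or targets, beside the Bcl6 list, with calls in this comparison without the block, 2 of 5 higher. Prdm1 averaged 18.3 ± 4.91 CPM in knockout and 3.62 ± 0.578 CPM in control GC B cells (log2 2.34, SE 0.35, edgeR adjusted p = 0.0248). Bhlha15 averaged 5.89 ± 0.78 CPM in knockout and 1.65 ± 0.0611 CPM in control GC B cells (log2 1.83, SE 0.27, adjusted p = 0.0248). Prdm1 is also on the Bcl6 list, its 1 called gene of 17, beside a Bcl6 estimate of -0.32. The summed plasmablast markers, which include Prdm1, were 1432.1 and 1977.5 CPM in knockout and 1073.0 and 1620.4 CPM in control GC B cells. Jchain alone gave 1051.6 and 1541.5 CPM of this in knockout and 771.4 and 1263.5 CPM in control. Of the 7 marker estimates 5 were above 0, while Tnfrsf17 (log2 -0.67) and Slamf7 (-0.24) were below it. The part of these markers in the rises was not tested. Leaving out pool 1 of the knockout (Prdm1 adjusted p = 0.139, Bhlha15 0.0807) or pool 1 (0.261 for each) or pool 2 of the control (0.217 for each) ended both calls, and leaving out pool 2 of the knockout ended that of Bhlha15 (0.0598). With only these 2 groups in the fit, 0 of 11514 genes were called higher and 0 lower, so neither Prdm1 nor Bhlha15 was called. The replicate block called 2.03% of all genes higher and 0.396% lower. With it, 3 of the 5 plasma cell factors, 3 of the 17 genes of the Bcl6 list, 2 of 16 relatives and 1 of 15 partners were higher. Of 13 Pax5 and Ebf1 targets, 2 were lower with the block, Fcer2a and Vpreb3. Fcer2a is the CD23 gene, from which the cre of the knockouts alone is driven, and the part of this was not tested.

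In plasmablasts, loss of Myb also left 0 members called by edgeR, where 0.00762% of tested genes were called higher and 0.0305% lower and 496 had an unadjusted p under 0.05. Mef2b and Irf8 were among the 496. Mef2b had 32.2 and 37.4 CPM in knockout plasmablasts, against 20.4 and 22.8 CPM in control plasmablasts, a 1.61-fold higher level (log2 0.69, 95% interval 0.25 to 1.13, unadjusted p = 0.00536, edgeR adjusted p = 0.735). Irf8 had 58.9 and 50.8 CPM in knockout, against 42.9 and 37.8 CPM in control (log2 0.44, interval 0.02 to 0.86, unadjusted p = 0.0401, adjusted p = 1.0). Both were higher in both date pairs, and neither passed with the replicate block (adjusted p = 0.0836 for Mef2b and 0.16 for Irf8).

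Pou2af1 was the third member with knockout pools above control pools (1532.7 and 1772.2 in knockout against 1189.1 and 1306.6 CPM in control, log2 0.41, interval -0.23 to 1.04). Spib (2.34 and 3.10 in knockout against 3.86 and 4.27 CPM in control, log2 -0.57, interval -1.27 to 0.13) and Ebf1 (4.15 and 3.10 in knockout against 5.21 and 5.90 CPM in control, log2 -0.62, interval -1.41 to 0.18) had knockout pools below control pools, at 17 or more counts a library. Such separation occurred higher for 13.6% and lower for 11.6% of all tested genes. Bcl6, Bach2, Pax5, Mef2c and Foxo1 overlapped between the genotypes. For Bcl6 the estimate of 0.51 (interval -0.53 to 1.54) rested on 31 knockout and 26 control counts.

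**Figure D4:**
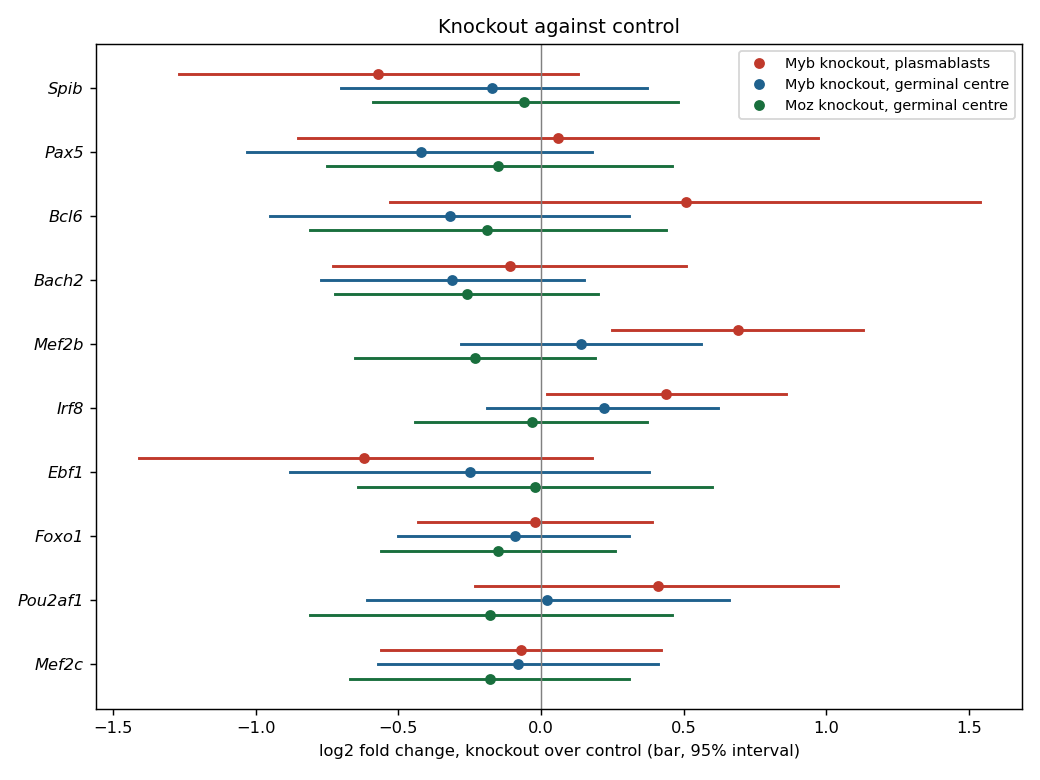
Log2 fold change of knockout over control with its 95% interval for each factor, for Myb in plasmablasts, Myb in GC B cells and Moz in GC B cells. All intervals include 0 except those of Mef2b and Irf8 in plasmablasts, which do not pass after adjustment.

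Whether the effect of Myb loss differed between plasmablasts and GC B cells was tested directly. The difference of the 2 effects was positive for 8 members and negative for 2, and 0 passed by edgeR, where 0.0% of all genes were called higher and 0.00762% lower and 489 had an unadjusted p under 0.05. Mef2b had a difference of 0.55 (95% interval -0.05 to 1.16), the nearest to passing, with an unadjusted p of 0.0703 and an adjusted p of 1.0. Bcl6 had the largest estimate, 0.82, with an interval of -0.39 to 2.04. Without the knockout GC pool with the doubtful label these were 0.49 for Mef2b and 0.80 for Bcl6, and 0 members passed.

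Loss of Moz in GC B cells on day 7 called 0 members by edgeR, and also 0 of all tested genes (0.0% in either direction), with 315 genes at an unadjusted p under 0.05. DESeq2 called 11 genes higher and limma-voom 0, with no member among them. All 10 estimates were below 0, from -0.26 (Bach2) to -0.02 (Ebf1), with a median of -0.16 beside -0.01 over all genes. The 7 GC markers were all below 0 too, with a median of -0.46. Summed GC markers were 1440.2 and 1526.6 CPM in knockout and 1789.2 and 2040.4 CPM in control GC B cells. Summed plasmablast markers were 6096.5 and 7301.3 CPM in knockout and 4729.3 and 4998.1 CPM in control. Of these sums, Jchain alone gave 5538.9 and 6516.9 CPM in knockout and 4196.2 and 4377.2 CPM in control. The part of these marker shifts in the member estimates was not tested. Bach2 had 155.0 and 222.6 CPM in knockout GC B cells, against 241.9 and 209.7 CPM in control GC B cells (log2 -0.26, interval -0.72 to 0.20). The second knockout pool lay between the controls. Mef2b was the 1 member whose knockout pools both lay below the control pools, at 146.0 and 126.2 in knockout against 146.6 and 172.2 CPM in control (log2 -0.23, interval -0.65 to 0.19), a separation seen for 13.4% of all genes.

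For Bcl6 and Pax5 the 2 Moz knockout pools lay on either side of their controls. Bcl6 had 67.9 and 122.4 CPM in them, against 103.3 and 113.6 CPM in control pools, and Pax5 had 285.7 and 145.5 CPM in knockout, against 246.6 and 231.4 CPM in control. Pool 1 was thus low in Bcl6 and high in Pax5, and pool 2 the reverse. Within date pairs, 6 members had opposite signs in the pairs, as did 52.7% of all genes, and 4 (Spib, Mef2b, Pou2af1 and Foxo1) were lower in both, as were 23.7%. Without knockout pool 1 the Bcl6 estimate of -0.19 became 0.18, and without knockout pool 2 the Pax5 estimate of -0.15 became 0.28.

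**Figure D5:**
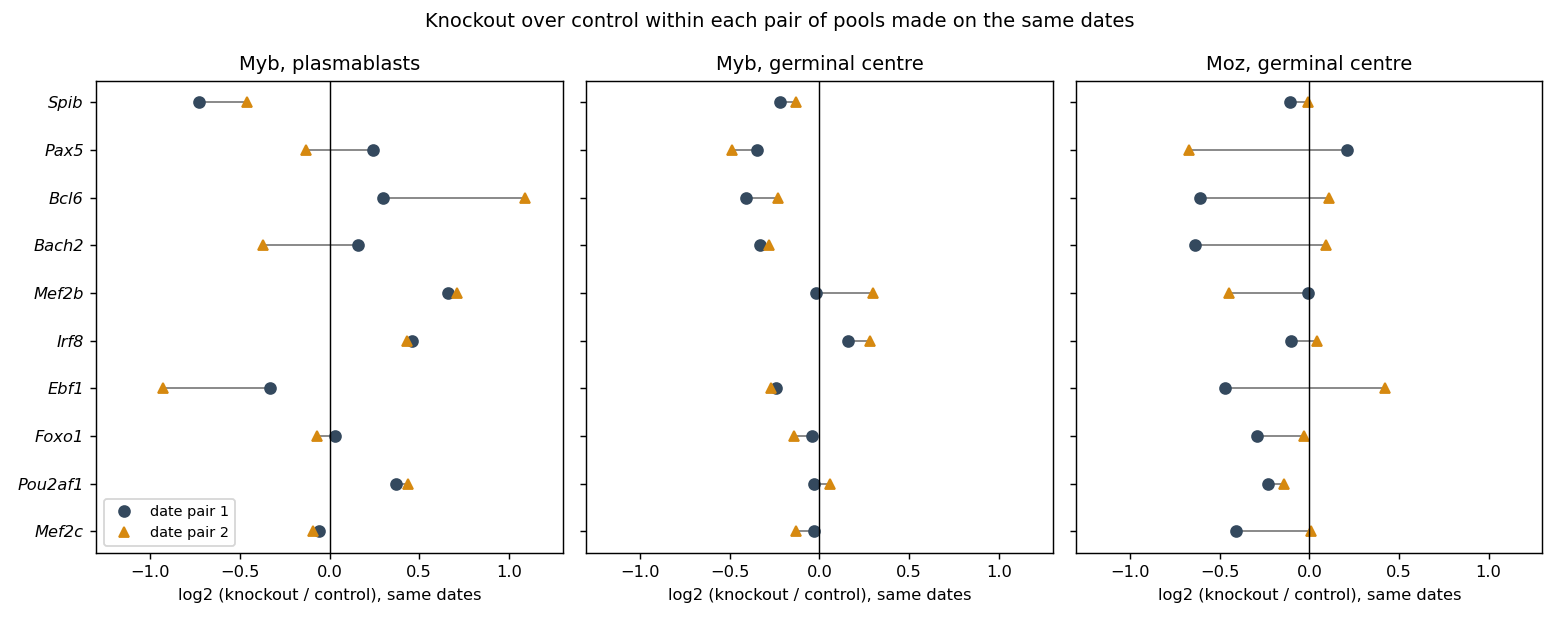
Log2 ratio of knockout over control within each pair of pools made on the same dates, for each factor and comparison. In Myb GC B cells 7 factors are lower in both pairs and Irf8 is higher in both, while 6 factors change sign between the Moz pairs.

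The controls of the 2 experiments differed in day, cre, floxed alleles, dates and sex of the mice together, which cannot be told apart. Myb GC control pools are labelled as 1 male with 2 females and 0 males with 2 females, and Moz control pool 1 as 5 males with 1 female. The Y-linked Ddx3y stood at 17.7 and 0.483 unscaled CPM in the Myb GC control pools and at 107.8 and 82.1 in the Moz control pools. Of the members, 0 were called between day 12 Myb control and day 7 Moz control GC B cells by edgeR, where 0.297% of all genes were higher and 1.08% lower on day 12 and 1021 had an unadjusted p under 0.05. Mef2b had 273.2 and 239.0 CPM on day 12, against 146.6 and 172.2 CPM on day 7 (log2 0.68, 95% interval 0.26 to 1.11, unadjusted p = 0.00422, adjusted p = 0.157). It passed with DESeq2 (log2 0.67, adjusted p = 0.0142), which called 0.48% of all genes higher. Bcl6, Irf8 and Pax5 also had both day 12 pools above both day 7 pools, making 4 members with Mef2b, a separation seen for 14.9% of all genes; their log2 estimates were 0.29, 0.22 and 0.38. Of the plasma cell factors, Prdm1 (3.62 ± 0.578 CPM on day 12 and 12.2 ± 1.65 CPM on day 7, log2 -1.76, SE 0.34, adjusted p = 0.0309) and Bhlha15 (1.65 ± 0.0611 CPM on day 12 and 15.0 ± 1.99 CPM on day 7, log2 -3.18, SE 0.26, adjusted p = 0.00089) were lower on day 12. Prdm1 did not pass without any 1 of the 4 pools (adjusted p from 0.0752 to 0.268). Summed plasmablast markers, Prdm1 included, were 1073.0 and 1620.4 CPM on day 12 and 4729.3 and 4998.1 CPM on day 7. Jchain alone gave 771.4 and 1263.5 CPM on day 12 and 4196.2 and 4377.2 CPM on day 7. The part of these markers was not tested.

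Profiles over the 6 group means were compared among all genes by the root mean square difference of centred log2 CPM, as a description, since the plasmablast groups dominate it. Among 9283 candidates the gene most like Bcl6 was H2-DMb2 (0.11), an MHC class II chaperone, followed by Cxcr5 (0.15), the follicle homing receptor. Pax5 was most like Ciita (0.15), Bach2 like Dek (0.15), Mef2b like Ubxn11 (0.13) and Irf8 like 2610318N02Rik (0.08) and Racgap1 (0.09). Among the members themselves, Bcl6 was nearest to Bach2 (0.27), Pax5 to Spib (0.34), Irf8 to Mef2b (0.24) and Mef2c to Pou2af1 (0.14).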

How the data were processed

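PolyA RNA of 12 pools of sorted mouse B cells was sequenced. The authors deposited raw gene counts for 27179 Entrez IDs, and the submitters' processing notes name featureCounts and mm10. Aligner, featureCounts version and strand setting: not given in the sources used here. RefSeq gave symbols for 25275 IDs. Libraries held 8285934 to 24801297 counts, and values of 6 to 30 counts in plasmablasts limit the precision there.

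All 12 libraries entered 1 edgeR 4.0.16 model (R 4.3.3) with 6 group means and 6 residual degrees of freedom. The filter was filterByExpr (minimum count 10, total 15), and libraries were scaled by TMM. Two-sided robust quasi-likelihood F tests were adjusted by Benjamini-Hochberg over 13131 genes at 0.05. SE is the absolute log2 fold change over the square root of F, and intervals are 95%. The method was tested on simulated counts, with changes larger than any member's knockout estimate and without shared dates. That test does not cover small differences. Pools are the replicates. Each p-value of the main model sets a difference against a spread between pools that is estimated over all 6 groups and moderated across genes. The main model does not use the shared dates.

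Knockout and control pools with the same number share experiment dates per the labels, and their deviations from the group means correlated at 0.6 (Myb GC), 0.453 (plasmablasts) and 0.361 (Moz). The replicate block takes that number within each experiment and cell type, so it serves only knockout against control, and leaves 3 residual degrees of freedom. Alternatives were DESeq2 1.42.0, limma 3.58.1 with voom, other scalings, no filter, only the groups compared, immunoglobulin genes left out, and each library left out. A library was left out only for the comparisons that use its group.

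The members and the 12 lists were chosen with earlier results of these data known. All members are named, and of each list up to 4 called genes a direction with the largest change, all 5 plasma cell factors, and a few uncalled relatives named after their values were seen. Likeness used genes of average log2 CPM 2 or more. Some genes of these lists count in the totals but are not reported here by name.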

Additional observations from a re-analysis of the deposited data

How the results depend on the processing

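The counts of members called were unchanged under every alternative that kept all pools of the groups compared (8 lower in plasmablasts in each genotype, 0 elsewhere), with these exceptions. Between day 12 and day 7 controls 1 member, Mef2b, was called with DESeq2. Foxo1 in knockout cells (plasmablasts over GC) was not called with only the groups compared (-0.64), and Mef2c and Pou2af1 were called with total counts alone. The replicate block changed no member's call. It was not run for plasmablasts over GC or day 12 over day 7, where no block spans both groups. Why the Mef2b, Foxo1, Mef2c and Pou2af1 calls changed with the setting was not tested. Estimates that changed sign were all of uncalled members or of list genes. With a library left out, ranges for Myb in GC B cells were -0.42 to 0.05 (Spib), -0.61 to 0.09 (Ebf1), -0.28 to 0.28 (Pou2af1), -0.20 to 0.02 (Foxo1) and -0.58 to 0.34 (Zbtb20). For Myb in plasmablasts they were -0.28 to 0.07 (Bach2), -0.07 to 0.19 (Pax5), -0.21 to 0.05 (Mef2c) and -0.07 to 0.03 (Foxo1). For Moz they were -0.65 to 0.18 (Bcl6), -0.72 to 0.28 (Pax5), -0.17 to 0.08 (Spib), -0.09 to 0.03 (Irf8), -0.24 to 0.22 (Ebf1) and -0.42 to 0.04 (Mef2c). For day 12 over day 7 they were -0.12 to 0.09 (Bach2), -0.15 to 0.46 (Ebf1), -0.28 to 0.19 (Pou2af1) and -0.08 to 0.14 (Foxo1). For the difference of Myb effects they were -0.13 to 0.13 (Mef2c) and -0.04 to 0.18 (Foxo1), and for plasmablasts over GC -0.36 to 0.20 (Pou2af1, knockout) and -0.30 to 0.81 (Zbtb20, control). Pou2af1 in knockout plasmablasts over GC was at 0.02 without immunoglobulin genes. With only the groups compared, Bach2 (0.01) and Pou2af1 (0.01) turned on day 12 over day 7. With total counts alone, signs turned on day 12 over day 7 for Bach2 (0.02) and Pou2af1 (0.01), for Pax5 (-0.03) with Myb in plasmablasts, for Mef2c (0.01) with Myb in GC, and for Mef2c (-0.17) and Foxo1 (-0.10) in the difference of effects. In control plasmablasts over GC the same scaling gave Bcl2l11 -0.81, Ccng2 -1.27, Hdac5 -0.14, Sesn1 -0.62, Tle3 -0.84 and Zbtb20 -1.50, beside a median of -2.04 over all genes. It split the calls of all genes into 1108 higher and 9877 lower, beside 3289 and 3695 with TMM, and in knockout cells into 884 and 10394, beside 3203 and 3567. Over all genes the block called 266 higher and 52 lower for Myb in GC, beside 31 and 3 without it, 28 and 48 for Myb in plasmablasts, beside 1 and 4, 35 and 4 for Moz, beside 0 and 0, and 8 and 63 for the difference of Myb effects, beside 0 and 1. DESeq2 called 144 and 17 for Myb in GC, 21 and 29 for Myb in plasmablasts, 11 and 0 for Moz, 8 and 37 for the difference, and 63 and 295 on day 12 over day 7, beside 39 and 142. No filter called 295 and 25, 46 and 58, 45 and 10, 13 and 123, and 90 and 411 in the same order. Limma-voom called 10 and 0 for Myb in GC, 2 and 8 for Myb in plasmablasts, and 46 and 94 on day 12 over day 7. With only the groups compared, 0 and 0 were called for Myb in GC, Myb in plasmablasts, Moz and the difference. On day 12 over day 7 that setting called 24 and 80. With a single library in a group, that library is assumed to vary like the other groups.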
